A study of Mus musculus with 12 samples.

Results

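The laminin chains and the hemidesmosome integrin of the colonic epithelium were followed here through 9 genes: the laminin α chains Lama1, Lama3 and Lama5, the β chains Lamb1, Lamb2 and Lamb3, the γ chain Lamc1, and the integrin subunits Itga6 and Itgb4. They were taken by gene symbol from the 55471 genes of the deposited table. The set was chosen by measured values, since Lama3 was lower in crypts of CBPAAp53-floxed mice than in those of CBPWTp53-floxed mice. That difference is therefore given below as a description, without a test, and so is every other value drawn from that contrast. A minimum on low counts left 8 of the 9, and 14610 genes in all.

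RNA was sequenced from colonic crypts of 12 mice, 3 in each of 4 groups, on the C57BL/6J strain. By the study's methods the mice were females of 8 weeks. CBPAA mice carry a knock-in allele of the coactivator CREB-binding protein (CBP) in which a pair of serines phosphorylated by IKKα is replaced by alanines. CBPWT mice carry the unchanged allele and were littermates of the CBPAA mice in the same p53 state. Mice of all 4 groups carry floxed p53 alleles. In CBPWTp53ΔIEC and CBPAAp53ΔIEC mice these were deleted by Villin-Cre, which is active in intestinal epithelial cells and leaves p53 in place in most other cell types. The CBPAA allele, in contrast, is present in every cell of the animal. It was made in embryonic stem cells with a neomycin cassette and backcrossed to C57BL/6. By the study's methods the p53ΔIEC groups came from a further cross to Villin-Cre mice. In comparisons of p53ΔIEC with p53-floxed crypts, p53 deletion therefore cannot be told apart from the Cre transgene or the cross.

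Laminins are the main adhesive proteins of the basement membrane, the sheet on which epithelial cells sit. Each is a trimer of an α, a β and a γ chain that is assembled before secretion, so that a trimer needs all of its chains. Laminin-332, with its α chain from Lama3 and its β chain from Lamb3, is the epithelial form that anchors hemidesmosomes. Its receptor there is the integrin α6β4, whose subunits are encoded by Itga6 and Itgb4. Laminin-511 and laminin-521 share the α5 chain of Lama5 and the γ1 chain of Lamc1 and differ in their β chain, from Lamb1 or Lamb2. In the intestine part of the laminin under the epithelium is made by stromal cells, which the crypt preparation leaves behind for the most part.

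The libraries held between 11177430 and 18029125 counts, and replicates correlated with r between 0.963 and 0.995. Trp53, the deleted gene, was at a level of 23.3 to 33.5 TPM (transcripts scaled by gene length and library size) in the 6 p53-floxed libraries and at 3.26 to 6.13 TPM in the 6 p53ΔIEC libraries, as the labels say. All 10 epithelial markers were detected, whereas 2 of 10 fibroblast markers, 1 of 8 endothelial markers and 1 of 7 smooth muscle markers passed the filter. The summed level of the fibroblast list was 1.95 to 3.84 TPM, against 12612 to 18234 TPM for the epithelial list. The endothelial marker Cdh5 and the smooth muscle markers Cnn1 and Rgs5 were at 0 in every library, whereas Pdgfrb, a pericyte marker, was at 1.81 to 6.49 TPM and the smooth muscle and pericyte list summed to 1.96 to 6.83 TPM. The α defensin Defa24, a product of Paneth cells of the small intestine, was at 0 in the 3 CBPWTp53-floxed libraries. It reached 8290 TPM in CBPWTp53ΔIEC replicate 1, 1913 TPM in CBPAAp53ΔIEC replicate 3, 1079 TPM in CBPAAp53ΔIEC replicate 1 and 471 TPM in CBPAAp53-floxed replicate 2, and it was at 23.1 TPM or lower in the other 5. Of the 12 markers of small intestine and Paneth cells 11 passed the filter, and their sum was 1965 to 3857 TPM in CBPWTp53-floxed, 4587 to 12065 TPM in CBPAAp53-floxed, 1566 to 20338 TPM in CBPWTp53ΔIEC and 393 to 9977 TPM in CBPAAp53ΔIEC crypts. The 4 libraries named for Defa24 are called those with Paneth cell RNA below, and results that move without them are given both ways. The sum of the 12 markers does not pick the same libraries. It was 12065 TPM in CBPAAp53-floxed replicate 3, which is not among the 4, and 4587 TPM in CBPAAp53-floxed replicate 2, which is. The libraries kept when the 4 are left out are therefore not free of small intestine markers. In crypt preparations, fewer cells of a type and less RNA per cell cannot be told apart.

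The levels of the 9 genes spanned a wide range. TPM values allow for gene length, so they are set beside each other here. They use 1 length per gene, whichever of its transcripts is present, so a gene read mostly as a shorter transcript would be understated. Lamb3, Itgb4 and Itga6 were the most abundant, with means over the 12 libraries of 71.1, 70.6 and 63.6 TPM. Their ranges, 46.7 to 96.3, 52.9 to 87.7 and 45.9 to 75.8 TPM, overlapped, so that no order among them held beyond the spread. Lamb2 at 8.43 TPM and Lama3 at 6.03 TPM came next, with ranges of 4.44 to 11.6 and 3.78 to 10.9 TPM that also overlapped. Lamc1 at 2.89 TPM and Lama5 at 2.40 TPM followed, and Lamb1 was the lowest of the detected chains at 1.01 TPM. Lama1 had 0 counts in all 12 libraries, which allows at most 0.166 to 0.268 CPM (counts scaled to library size) depending on the library. The floor covers counting error only. Outside the set, Lama2 and Lamc3 had 0 counts throughout and Lama4 had at most 9 counts. By TPM, Lamb3 thus stood an order of magnitude above Lama3, its α3 partner, in these crypts. The exons of Lama3 together span 10745 bases and those of Lamb3 6612, and which transcripts were present was not tested. The chains of laminin-511 were represented by few counts.

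**Figure D1:**
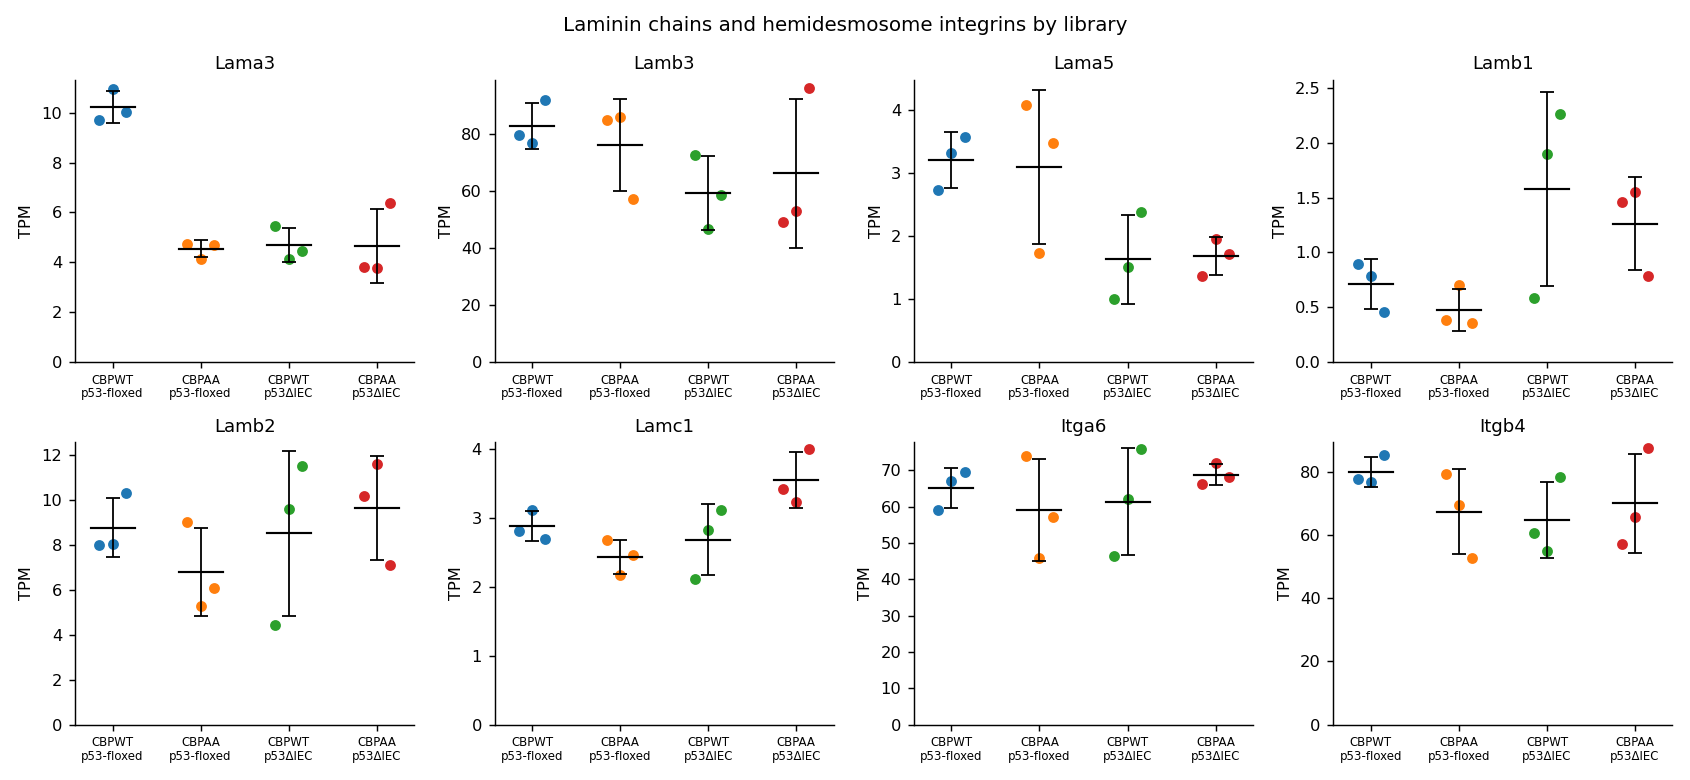
TPM of the 8 detected genes in each of the 12 libraries, 3 per group. Points are libraries, the horizontal bar is the group mean and the whiskers are ± 1 SD. Lama3 lies between 9.70 and 10.9 TPM in CBPWTp53-floxed crypts and between 3.78 and 6.37 TPM in the other 9 libraries.

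Lama3 (chromosome 18, 12333819 to 12583013, plus strand, GRCm38) encodes the α3 chain, the only α chain of laminin-332. Its level was 9.70, 10.9 and 10.0 TPM in the CBPWTp53-floxed libraries and 4.75, 4.14 and 4.71 TPM in the CBPAAp53-floxed libraries. In the CBPWTp53ΔIEC libraries it was 5.46, 4.13 and 4.47 TPM, and in the CBPAAp53ΔIEC libraries 3.82, 3.78 and 6.37 TPM. CBPWTp53-floxed crypts were thus the only group set apart from the others, and the means of the other 3 groups, 4.53 ± 0.343, 4.69 ± 0.692 and 4.66 ± 1.49 TPM (SD, n = 3 each), lay within their spread.

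Between CBPAAp53-floxed and CBPWTp53-floxed crypts, the contrast that chose it, the log2 fold change of Lama3 was -1.05 (SE 0.23). The ratio of the group means was 0.443 in TPM and 0.485 in CPM. Lama3 was the only one of the 8 detected genes whose groups did not overlap there, and 9.62% of all genes tested were lower without overlap. The log2 fold changes of the other 7 were between -0.41 and 0.06. In CBPWT mice the log2 fold change of Lama3 with p53 deletion was -1.06 (SE 0.23), and in CBPAA mice it was -0.09 (SE 0.23). Over the alternatives run it was between -1.34 and -0.93 in CBPWT mice and between -0.47 and 0.05 in CBPAA mice. These values share libraries with the contrast that chose the gene and were not tested.

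Lama3 was tested in the comparison of the p53ΔIEC groups, which holds no library of the contrast that chose it. It was also tested for the averaged effect of p53 deletion. That effect uses the same p53-floxed libraries, in a contrast orthogonal to that choice in the fit of all 12 libraries. In p53ΔIEC crypts Lama3 did not differ between CBPAA and CBPWT mice past the cutoff (log2 fold change -0.08, SE 0.24, adjusted p = 0.993, edgeR). The effect of p53 deletion averaged over both CBP genotypes was -0.57 (SE 0.17) on the log2 scale and missed the cutoff, with an adjusted p of 0.0652. It is the mean of -1.06 in CBPWT mice and -0.09 in CBPAA mice. It passed with DESeq2 (adjusted p = 0.0156). It also passed without CBPWTp53ΔIEC replicate 1 (-0.71, adjusted p = 0.00775) and without CBPAAp53ΔIEC replicate 3 (-0.74, adjusted p = 0.00454), the libraries with the most Paneth cell RNA. Without both of them the value was -0.88 (adjusted p = 1.55e-05). The fit without both was chosen after seeing the data. Each of these libraries held the highest Lama3 value of its p53ΔIEC group, 5.46 and 6.37 TPM. A larger fall on leaving them out was therefore fixed in advance and adds no support.

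The β chain of laminin-332 did not follow Lama3 between the p53-floxed groups. Lamb3 (chromosome 1, 193207699 to 193343878, plus strand), the β3 chain, was at 79.5, 76.9 and 92.0 TPM in CBPWTp53-floxed crypts. In CBPAAp53-floxed crypts it was at 84.9, 86.1 and 57.4 TPM, a range that overlaps that of the former group. The ratio of Lama3 to Lamb3 within a library was 0.109 to 0.142 in CBPWTp53-floxed crypts, 0.0481 to 0.0822 in CBPAAp53-floxed crypts, 0.0752 to 0.0886 in CBPWTp53ΔIEC crypts and 0.0662 to 0.0776 in CBPAAp53ΔIEC crypts. The CBPWTp53-floxed libraries lay above the other 9, which overlapped among their groups.

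With p53 deleted, Lamb3 was at 72.7, 46.7 and 58.5 TPM in CBPWT mice and at 49.2, 53.1 and 96.3 TPM in CBPAA mice. The single highest value of all libraries and the lowest of all were both in p53ΔIEC crypts. Averaged over both CBP genotypes, the log2 fold change of Lamb3 with p53 deletion was -0.36 (SE 0.20, adjusted p = 0.33). The result for Lamb3 depended on which p53ΔIEC libraries were kept. Without CBPWTp53ΔIEC replicate 1 alone the value was -0.53 (adjusted p = 0.0777, edgeR). Without CBPAAp53ΔIEC replicate 1 alone, also a library with Paneth cell RNA, it was -0.27 (adjusted p = 0.571). Without CBPAAp53ΔIEC replicate 3 alone, which held the highest value, it was -0.56 (adjusted p = 0.0409). Without that library and CBPWTp53ΔIEC replicate 1 it was -0.74 (adjusted p = 0.000107). In that fit, added after seeing the data, 11.4% of all genes passed the cutoff, and Lama3 and Lamb3 passed it in the same direction. For both genes the libraries left out held the highest value of each p53ΔIEC group, so the larger falls were fixed in advance.

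**Figure D2:**
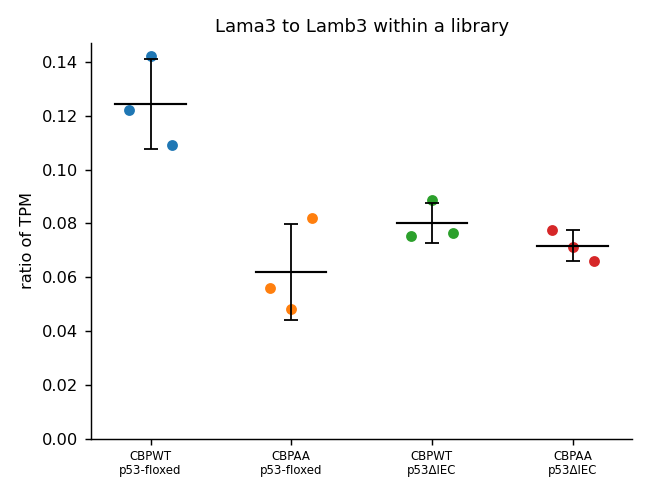
Ratio of Lama3 to Lamb3, the α and β chains of laminin-332, in TPM within each library. Points are libraries, bars are group means and whiskers ± 1 SD (n = 3). The ratio of the CBPWTp53-floxed libraries, 0.109 to 0.142, lies above that of the other 9.

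The α5 chain and the β1 chain were the 2 genes of the set that changed with p53 deletion averaged over both CBP genotypes. Of the 8 genes tested, Lama5 fell and Lamb1 rose, where 3.5% of all genes passed the same cutoff, an adjusted p below 0.05 and a log2 fold change over 0.5 in size. By direction 0.732% of all genes fell and 2.77% rose. Neither gene separated the 6 p53ΔIEC libraries from the 6 p53-floxed libraries without overlap, which 1.76% of all genes did.

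Lama5 (chromosome 2, 180176373 to 180225859, minus strand) encodes the α chain of laminin-511 and laminin-521, the laminins of most adult epithelial basement membranes. It was at 2.72, 3.33 and 3.58 TPM in CBPWTp53-floxed crypts and at 4.08, 1.73 and 3.48 TPM in CBPAAp53-floxed crypts. In CBPWTp53ΔIEC crypts it was at 0.993, 1.51 and 2.38 TPM, and in CBPAAp53ΔIEC crypts at 1.37, 1.96 and 1.72 TPM. All p53ΔIEC libraries lay below all p53-floxed ones except for CBPAAp53-floxed replicate 2, one of the 4 libraries with Paneth cell RNA.

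The averaged log2 fold change of Lama5 was -0.99 (SE 0.20, adjusted p = 0.0175), a fold of 0.503. It was -0.98 (SE 0.28) in CBPWT mice and -0.999 (SE 0.28) in CBPAA mice. Neither passed the cutoff by itself, with adjusted p of 0.0714 and 0.32. The averaged call was lost without CBPWTp53-floxed replicate 3 (adjusted p = 0.0586), without CBPAAp53-floxed replicate 3 (0.0516) and without CBPAAp53ΔIEC replicate 1 (0.0557). It held without all 4 libraries with Paneth cell RNA (-0.96, adjusted p = 0.000115).

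Lamb1 (chromosome 12, 31265234 to 31329644, plus strand) encodes the β1 chain, found in laminin-511 and in laminin-111, whose α chain is that of Lama1. It was at 0.897, 0.785 and 0.453 TPM in CBPWTp53-floxed crypts and at 0.385, 0.698 and 0.351 TPM in CBPAAp53-floxed crypts. In CBPWTp53ΔIEC crypts it was at 0.580, 1.903 and 2.26 TPM, and in CBPAAp53ΔIEC crypts at 1.46, 1.55 and 0.781 TPM. The 4 highest values were all in p53ΔIEC crypts, and the remaining 2 p53ΔIEC libraries, CBPWTp53ΔIEC replicate 1 and CBPAAp53ΔIEC replicate 3, lay within the p53-floxed range. These values rest on 18 to 115 counts per library.

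The averaged log2 fold change of Lamb1 was 1.18 (SE 0.30, adjusted p = 0.0418), a fold of 2.27. It was 1.13 (SE 0.42, adjusted p = 0.147) in CBPWT mice and 1.23 (SE 0.43, adjusted p = 0.334) in CBPAA mice. The call was near the cutoff and was lost on leaving out any 1 of 9 libraries, with adjusted p between 0.0666 and 0.119. It held without CBPAAp53-floxed replicate 2 (0.0308), CBPWTp53ΔIEC replicate 1 (0.00525) or CBPAAp53ΔIEC replicate 3 (0.0155), and without all 4 libraries with Paneth cell RNA the value was 1.70 (adjusted p = 5.23e-05). Within a library the ratio of Lamb1 to Lama5 was 0.0945 to 0.403 in p53-floxed crypts and 0.455 to 1.26 in p53ΔIEC crypts.

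Genes of the cell cycle moved with these values. The summed level of the 10 proliferation markers was 78.0 to 132.6 TPM in p53-floxed crypts and 112 to 440 TPM in p53ΔIEC crypts, and all 10 passed the cutoff upwards in the averaged comparison. The 2 p53ΔIEC libraries with the most Paneth cell RNA had the lowest sums of that genotype, 158.8 TPM in CBPWTp53ΔIEC replicate 1 and 112 TPM in CBPAAp53ΔIEC replicate 3. Over the 12 libraries the sum correlated with Lamb1 at r = 0.89, Lamb2 at 0.60, Itga6 at 0.40 and Lamc1 at 0.36. It correlated with Lamb3 at r = -0.80, Lama3 at -0.58, Lama5 at -0.45 and Itgb4 at -0.36. With the summed markers of crypt base stem cells r was highest for Lamb2 (0.94) and Itga6 (0.86). These values are a description over libraries that share the p53 groups. The part of proliferating and stem cells in these results was not tested. The fibroblast list summed to 1.95 to 3.12 TPM in p53-floxed and 2.68 to 3.84 TPM in p53ΔIEC crypts. Pdgfrb averaged 5.15 TPM in p53-floxed and 2.93 TPM in p53ΔIEC crypts and passed the cutoff downwards in the averaged comparison (log2 fold change -0.86) and in CBPWT mice (-0.97). The part of these cell types in the values of Lama5 and Lamb1 was not tested.

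**Figure D3:**
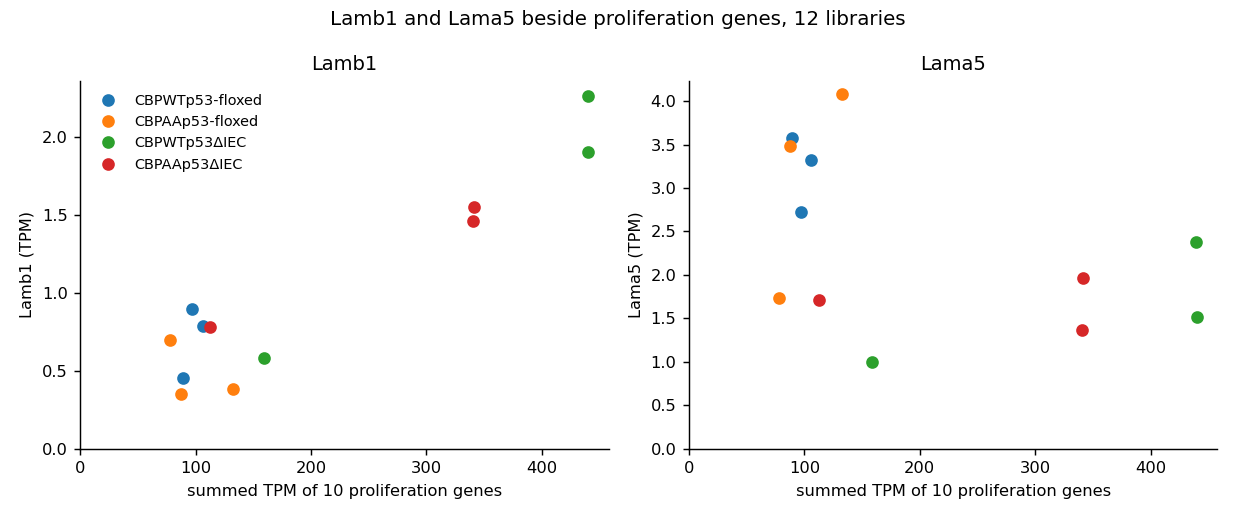
TPM of Lamb1 and of Lama5 against the summed TPM of 10 proliferation genes in each of the 12 libraries, coloured by group. Lamb1 is highest in the 4 p53ΔIEC libraries whose sum is 340 TPM or more, and Lama5 is above 2.5 TPM only in p53-floxed libraries, whose sums are at most 132.6 TPM.

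The sequence before the start of Lama5 and of Lamb1 is shown because these were the 2 genes that changed. Both come from RefSeq on GRCm38.p6 and are written 5′ to 3′ on the strand of the gene. That of Lama5 covers the 250 bases before its start, chr2:180225860-180226109. That of Lamb1, chr12:31265043-31265233, was cut at the first base of the GENCODE gene, which leaves 191 bases. The capitals mark TGACG, one arm of the cAMP response element, the site of CREB, for which CBP is named.
Lama5: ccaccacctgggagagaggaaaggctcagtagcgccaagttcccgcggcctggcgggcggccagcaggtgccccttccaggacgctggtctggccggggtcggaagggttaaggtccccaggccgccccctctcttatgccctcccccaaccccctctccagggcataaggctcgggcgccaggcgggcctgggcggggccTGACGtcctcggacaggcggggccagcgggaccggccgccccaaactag
Lamb1: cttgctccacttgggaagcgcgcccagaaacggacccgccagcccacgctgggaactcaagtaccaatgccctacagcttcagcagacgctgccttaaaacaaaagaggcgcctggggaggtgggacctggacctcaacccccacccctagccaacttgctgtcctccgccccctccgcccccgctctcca

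Both windows were rich in G and C, at 72.4% for Lama5 and 63.9% for Lamb1, against a median of 52.4% over the 32851 windows of the table. TGACG on either strand was found once in that of Lama5, its last base 45 bases before the start, and not in that of Lamb1. It was found in 17.8% of all windows. The full palindrome TGACGTCA was in 1.55% of all windows, the AP-1 site TGANTCA in 6.75%, and the p53 response element in 0.0639%. None of these 3 was in the windows of the 4 members that the table holds. The motifs were chosen after seeing the data, and a match is a description of the letters only.

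Lamb2 (chromosome 9, 108479736 to 108490530, plus strand) and Lamc1 (chromosome 1, 153218922 to 153332786, minus strand), the β2 and γ1 chains, complete laminin-521 with the α5 chain. Lamb2 was at 7.99, 8.03 and 10.3 TPM in CBPWTp53-floxed crypts, 9.02, 5.30 and 6.10 TPM in CBPAAp53-floxed crypts, 4.44, 9.58 and 11.5 TPM in CBPWTp53ΔIEC crypts and 10.2, 11.6 and 7.09 TPM in CBPAAp53ΔIEC crypts. All 4 groups overlapped, and the averaged log2 fold change with p53 deletion was 0.16 (SE 0.17, adjusted p = 0.599).

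Lamc1 was at 2.81, 3.12 and 2.70 TPM in CBPWTp53-floxed crypts, 2.67, 2.17 and 2.45 TPM in CBPAAp53-floxed crypts, 2.11, 2.83 and 3.12 TPM in CBPWTp53ΔIEC crypts and 3.41, 3.23 and 4.00 TPM in CBPAAp53ΔIEC crypts. The CBPAAp53ΔIEC libraries lay above every other library. They exceeded CBPAAp53-floxed crypts by 0.42 on the log2 scale (SE 0.15, adjusted p = 0.342) and CBPWTp53ΔIEC crypts by 0.37 (SE 0.15, unadjusted p = 0.0289, adjusted p = 0.985). Neither value passed the cutoff. Groups without overlap and in this direction made up 7.86% of all genes in the former comparison and 4.76% in the latter.

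Itga6 (chromosome 2, 71745616 to 71858416, plus strand) and Itgb4 (chromosome 11, 115974709 to 116008412, plus strand) encode the subunits of the laminin-332 receptor. Itga6 was at 59.1, 67.0 and 69.4 TPM in CBPWTp53-floxed crypts, 74.0, 45.9 and 57.2 TPM in CBPAAp53-floxed crypts, 46.4, 62.0 and 75.8 TPM in CBPWTp53ΔIEC crypts and 66.3, 72.0 and 68.1 TPM in CBPAAp53ΔIEC crypts. Every group overlapped each of the others. Its averaged log2 fold change with p53 deletion was 0.01 (SE 0.09, adjusted p = 0.948).

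Itgb4 was at 77.7, 77.0 and 85.4 TPM in CBPWTp53-floxed crypts, 79.6, 69.7 and 52.9 TPM in CBPAAp53-floxed crypts, 60.8, 55.1 and 78.3 TPM in CBPWTp53ΔIEC crypts and 57.3, 65.7 and 87.7 TPM in CBPAAp53ΔIEC crypts. It overlapped between all groups in TPM. In CPM all CBPWTp53ΔIEC libraries lay below the CBPWTp53-floxed ones, with a log2 fold change of -0.27 (SE 0.16, adjusted p = 0.373). An antisense-strand long noncoding RNA shares 537 bases, 7.66% of the exonic bases of Itgb4, and whether counting used strand is not given in the sources used here. The ratio of Itga6 to Itgb4 was between 0.659 and 1.16 over the 12 libraries, and no group stood apart.

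Outside the averaged comparison, no member passed the cutoff in the edgeR fit of all 12 libraries. With p53 deletion in CBPWT mice 0 of 7 tested genes passed the cutoff with edgeR, against 3.15% of all genes, with 2 at an unadjusted p below 0.05 and 1, Lama5, with DESeq2. With p53 deletion in CBPAA mice 0 of 7 passed, against 0.0274% of all genes, with 3 at an unadjusted p below 0.05 and 0 with DESeq2. Between CBPAAp53ΔIEC and CBPWTp53ΔIEC crypts 0 of 8 passed, against 0.00684% of all genes, with 1, Lamc1, at an unadjusted p below 0.05 and 0 with DESeq2. Of all 14610 genes 3053, 1841 and 521 had an unadjusted p below 0.05 (edgeR) in these comparisons, in the same order. Without overlap in CPM were 2 of the 7 tested genes in the first of these (Lama5 and Itgb4, both lower, against 14.7% of all genes). In the second they were Lamb1 and Lamc1, both higher, against 7.86% of all genes. In the third it was Lamc1, higher, against 4.76% of all genes.

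**Figure D4:**
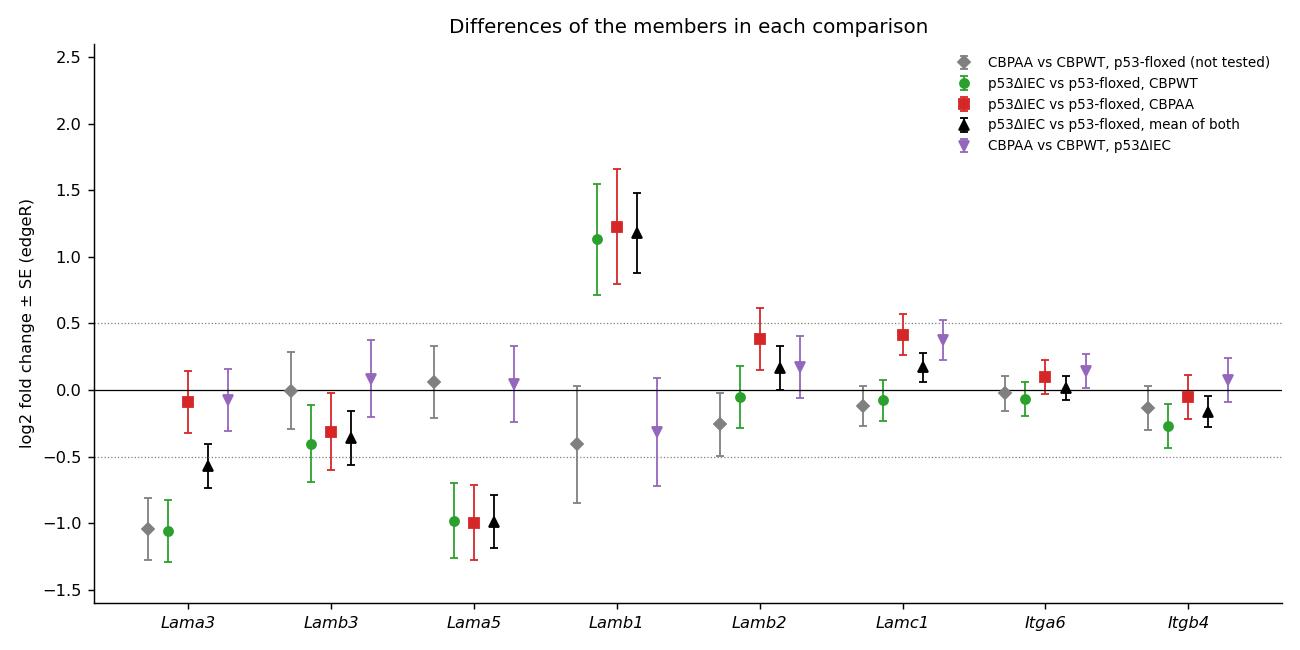
Log2 fold change ± SE of the 8 detected genes in 5 comparisons, from the edgeR fit over 12 libraries. The dotted lines mark 0.5 in either direction, part of the cutoff, and Lama3 was not tested where a comparison holds 1 of the p53-floxed groups alone. Lama5 lies near -1 and Lamb1 above 1 in each comparison of p53ΔIEC with p53-floxed crypts, whereas Lama3 lies near -1 in CBPWT mice and near 0 in CBPAA mice.

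The wider adhesion machinery was read from 7 lists of 67 genes, of which 45 passed the filter. With p53 deletion in CBPWT mice 1 of the 45 passed the cutoff, against 3.15% of all genes, and 2, Dst and Mmp7, with DESeq2. Dst encodes dystonin, whose epithelial form links hemidesmosomes to keratin filaments. Counts per gene do not show which form was present. Col17a1, another hemidesmosome gene of these lists, had at most 3 counts in a library. It was at 12.3, 12.4 and 15.5 TPM in CBPWTp53-floxed crypts and at 6.81, 7.54 and 9.05 TPM in CBPWTp53ΔIEC crypts, with no overlap (log2 fold change -0.75, SE 0.16, adjusted p = 0.034). It was at 11.2, 6.10 and 7.86 TPM in CBPAAp53-floxed crypts and at 8.09, 9.17 and 10.4 TPM in CBPAAp53ΔIEC crypts, a log2 fold change with p53 deletion of 0.02 (SE 0.16, adjusted p = 0.971). Whether the effect on Dst differed between CBP genotypes was not tested, since that difference holds the contrast that chose the set.

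In the other 3 comparisons 0 of the 45 genes passed with edgeR. At an unadjusted p below 0.05 were 3 with p53 deletion in CBPAA mice, 0 between the p53ΔIEC groups and 7 in the averaged comparison. Of all 14610 genes 1841, 521 and 3201 were below 0.05 in the same order. With DESeq2 1 (Krt18), 0 and 1 (Mmp7) passed. Parva, an adaptor between integrins and actin, had an adjusted p of 0.0428 in the averaged comparison but a log2 fold change of -0.31 (SE 0.08), under the cutoff on size.

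The levels of the other genes are given by list. Of the other laminin receptors all 9 were detected, led by the syndecans Sdc4 at 256 TPM and Sdc1 at 179 TPM, with averaged log2 fold changes of -0.10 (SE 0.07) and -0.07 (SE 0.07). Itgb1, which pairs with several laminin-binding α subunits, was at 146 TPM (-0.03, SE 0.07). Among the hemidesmosome partners the keratins Krt8 and Krt18 led at 5219 and 852 TPM, with averaged values of -0.01 (SE 0.10) and -0.22 (SE 0.10, adjusted p = 0.203). Of 20 other basement membrane genes 10 were detected, led by Agrn at 26.9 TPM (-0.03, SE 0.09) and Ntn4 at 17.8 TPM (-0.33, SE 0.17). The median log2 fold change of those 10 in the averaged comparison was 0.34, beside 0.01 over all genes, with 8 above 0 and none past the cutoff. The least abundant of the 10, at 0.0972 to 0.390 TPM and 2 to 35 counts per library, were all above 0, with SE of 0.28 to 0.40. The more abundant ones were between -0.33 and 0.27, so the median rests mostly on genes with few counts.

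Among 15 adhesion linkers 13 were detected, led by Tns4 at 129 TPM (averaged log2 fold change -0.30, SE 0.15) and Src at 76.0 TPM (-0.06, SE 0.09). Of 7 other integrin genes 4 were detected, led by Itgb5 at 20.2 TPM (0.24, SE 0.15) and Itgb6 at 9.56 TPM (-0.05, SE 0.09). Of 6 proteases that can cut laminin chains 3 were detected, led by Mmp14 at 26.6 TPM (-0.12, SE 0.08) and Mmp7 at 25.8 TPM (2.68, SE 0.92, adjusted p = 0.142). Mmp7 is itself a Paneth cell gene in mice, and the part of Paneth cells in its value was not tested.

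The genes whose levels followed Lama3 most closely over the 12 libraries were Ocln (r = 0.96), which encodes the tight junction protein occludin, B3galt2 (r = 0.91), Stc2 (r = 0.91), Slc35f5 (r = 0.90) and Gm36298 (r = 0.90). The correlations are on log2(CPM + 1) and are a description, since the libraries share their groups. Ocln was at 84.9 TPM in CBPWTp53-floxed crypts on average and at 64.6, 67.6 and 68.3 TPM in CBPAAp53-floxed, CBPWTp53ΔIEC and CBPAAp53ΔIEC crypts. B3galt2, a galactosyltransferase gene, was at 14.9, 7.09, 4.39 and 5.60 TPM in the same order. Both were highest in the group in which Lama3 was highest, and the step was larger for B3galt2 than for Ocln.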

How the data were processed

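Crypts were released with EDTA, and poly(A) RNA was sequenced from TruSeq stranded libraries on an Illumina NovaSeq instrument. Per the labels, the authors used fastp 0.20.0, FastQC 0.11.9, HISAT2 2.1.0, SAMtools 1.9 and featureCounts of Subread 2.0.1 on GRCm38. The strand setting of counting is not given in the sources used here. The deposited table holds raw counts per gene and the authors' TPM values, 1 column of each per mouse. TPM were used for levels and ratios, and counts for tests.

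Counts of the 12 libraries were fitted together in edgeR 4.0.16 (R 4.3.3) with TMM scaling, filterByExpr at a minimum count of 10 and the robust quasi-likelihood test, with Benjamini-Hochberg adjustment over 14610 genes. A gene was called at an adjusted p below 0.05 and a log2 fold change over 0.5 in size. The averaged effect of p53 deletion is the mean of its effects in both CBP genotypes, which is orthogonal to the contrast that proposed the set in the fit of all 12 libraries. It is not orthogonal where leaving out libraries makes the p53-floxed groups unequal in size. DESeq2 1.42.0, other scaling and filters, a replicate block, fits of only the groups compared and leaving out libraries were tried as alternatives. Gene models were from GENCODE M21, in which 55144 of the 55471 identifiers were found, and 4 of the 9 genes were matched in the RefSeq upstream table. Protein sequences were not used here.

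The members, gene lists and tests were chosen with earlier results of these data known. Named were all 9 members, genes of the lists that passed the cutoff or, where fewer than 4 did, the 2 with the highest TPM of each list, the 5 genes most correlated with Lama3, Trp53 and defining markers. Itgb1, Parva and the genes called under other settings were named after their values were seen. One further gene that this rule names is not reported here.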

Additional observations from a re-analysis of the deposited data

How the results depend on the processing

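The direction of every member past the cutoff was kept under all alternatives run. Counts of genes and members past the cutoff moved as follows. With p53 deletion in CBPWT mice, 460 genes passed, with 871 by DESeq2, 723 in a fit of only the groups compared, 1 (without CBPWTp53-floxed replicate 3) to 906 (without CBPWTp53ΔIEC replicate 1) on leaving out 1 library, and 1370 or 1729 without the 2 or the 4 libraries with Paneth cell RNA. Members there numbered 0, with 1 by DESeq2 and in the fit of only the groups compared, 0 to 1 without 1 library, and 2 or 3 without the 2 or 4 libraries. With p53 deletion in CBPAA mice, 4 genes passed, with 75 by DESeq2, 11 without the filter, 1 in the fit of only the groups compared, 1 (without CBPAAp53ΔIEC replicate 1) to 326 (without CBPAAp53ΔIEC replicate 3) without 1 library, and 1205 or 1053 without the 2 or 4 libraries. Members there numbered 0, 0 to 0 without 1 library, and 2 or 3 without the 2 or 4 libraries. Between the p53ΔIEC groups 1 gene passed, with 2 by DESeq2, 0 in the fit of only the groups compared, 0 to 1 without 1 library, and 0 or 8 without the 2 or 4 libraries. In the averaged comparison 511 genes passed, with 770 by DESeq2, 105 (without CBPWTp53-floxed replicate 3) to 1073 (without CBPWTp53ΔIEC replicate 1) without 1 library, and 1697 or 1692 without the 2 or 4 libraries. Members there numbered 2, with 3 by DESeq2 (Lama3, Lama5 and Lamb1), 1 (Lama5) without the filter, 0 (without CBPWTp53-floxed replicate 3, CBPAAp53-floxed replicate 3 or CBPAAp53ΔIEC replicate 1) to 4 (without CBPAAp53ΔIEC replicate 3) without 1 library, and 4 without the 2 or the 4 libraries (Lama3, Lamb3, Lama5 and Lamb1). The fits without the 2 or 4 libraries were chosen after seeing the data. The 2 held the highest Lama3 and Lamb3 values of each p53ΔIEC group, so leaving them out favoured the added calls of these genes. The 4 include a CBPAAp53-floxed library, so without them the averaged contrast is not orthogonal to the one that chose Lama3.

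Same-numbered mice of different groups did not deviate together. Over 18 such pairs r was between -0.57 and 0.60, and 4 exceeded 0.1, so the replicate numbers do not pair the samples. CBPWTp53ΔIEC replicate 1 and CBPAAp53ΔIEC replicate 3 deviated together, at r = 0.68. In the column names both carry lower mouse numbers than the other p53ΔIEC mice. What the mouse numbers stand for is not given in the sources used here, and their part was not tested. With the replicate block 32, 2, 0 and 304 genes passed in the same 4 comparisons, and 1 member, Lama5, passed in the averaged one (Lamb1 had an adjusted p of 0.0593). The log2 fold change of Lama3 between the p53-floxed groups was -1.15 to -0.99 without 1 library, and its ratio was 0.485 in CPM against 0.443 in TPM. The cause of these shifts was not tested. Depth limits Lamb1, with 18 to 115 counts per library, and Lama5, with 57 to 272, more than the other detected members. P-values of the main fit rest on the spread between mice within groups, 3 per group. That spread was estimated jointly over all 12 libraries, not from the compared groups alone.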
